A study of Mus musculus with 6 samples.

Results

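Cholesterol and isoprenoid synthesis genes, together with the lipid genes that share their control by sterol regulatory element-binding proteins (SREBPs), were followed in mouse fetal samples labelled as heart, with and without Sp3. The members were 31 genes listed by name in pathway order, not by their values. Of these, 30 had a probe set annotated to them alone, out of 18193 genes in the table, and each is given by the probe set with its highest mean level. Acat2, the cytosolic thiolase that opens the pathway, had no such probe set and is not analysed here. The samples were labelled as single hearts at E12.5, 3 from fetuses lacking Sp3 (knockout a to c) and 3 from wildtype fetuses (wildtype a to c). The sources used here name no strain, no deleted part of Sp3 and no fetal sex. By the labels each sample is total RNA of a single heart, hybridised to 1 oligonucleotide array, and values are log2 of the deposited intensity. Nothing in the labels pairs samples across the groups.

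Cells make cholesterol from acetyl units through mevalonate and squalene, and draw isoprenoids for protein prenylation and ubiquinone from the same path. When membrane sterol falls, Scap carries SREBP proteins from the endoplasmic reticulum to the Golgi, where they are cleaved and released to the nucleus. Insig proteins hold Scap back when sterol is plentiful. Nuclear SREBPs bind promoters weakly on their own and act with neighbouring factors, classically Sp1 at GC boxes and NF-Y at CCAAT boxes. Sp3 is a zinc finger factor that binds the same GC boxes as Sp1. In the embryo this pathway also supplies the sterol that is attached to Hedgehog ligands.

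Most listed promoters of the members hold GC box letters, and most hold CCAAT letters. RefSeq promoters of GRCm38.p6, 250 bases before to 50 after a start, were listed for 25 members, with 33 starts in all. Letters were searched on both strands, and matches of different motifs could overlap. GGGCGG, the letters of the GC box, stood in 20 of the 25 genes, counting a match at any listed start. It stood in 57.3% of the 14452 measured genes with a listed promoter and 38.2% of all 27025 genes with one. By promoter it stood in 24 of the 33, against 35.7% of all 32851 of this length. Among the 5400 measured genes with a listed promoter that lie in the members' range of array levels the share was 71.9%, near the members' 80.0%. The median content of G and C was 61.3% over the 33 member promoters and 52.7% over all promoters. CCAAT, the NF-Y box, stood in 21 of the 25. Its shares were 42.0% of measured genes, 43.3% of those in the level range and 41.1% of all genes. The palindromic E-box CACGTG stood in 5 of the 25. Its shares were 10.2% of measured genes, 12.6% of those in the level range and 8.09% of all genes. CACCCCAC, the core of the sterol response element, stood in 2 of the 25, Acat2 and Hmgcs1. Its shares were 3.76% of measured genes, 3.44% of those in the level range and 3.30% of all genes. A match describes letters only, and the same window without one says nothing about the factor.

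Shown here are the 250 bases before the listed start of 6 members, chosen after their values were seen. Hmgcs1 holds the sterol core beside GC and CCAAT letters, Mvk and Ebp are enzyme genes that lay lower in all knockout arrays, and Sc5d had the lowest difference among the sterol enzymes after Ebp. Srebf2 is the regulator with the most GC boxes, and Ggps1 lay higher in all knockout arrays. Capitals mark GC box, CCAAT, sterol core and E-box letters on either strand. The windows are chr13:119690101-119690350 on the plus strand for Hmgcs1, chr5:114444019-114444268 on the plus strand for Mvk, and chr13:14063489-14063738 on the minus strand for Ggps1. They are chrX:8193513-8193762 on the minus strand for Ebp, chr9:42264301-42264550 on the minus strand for Sc5d, and chr15:82147019-82147268 on the plus strand for Srebf2.
Hmgcs1: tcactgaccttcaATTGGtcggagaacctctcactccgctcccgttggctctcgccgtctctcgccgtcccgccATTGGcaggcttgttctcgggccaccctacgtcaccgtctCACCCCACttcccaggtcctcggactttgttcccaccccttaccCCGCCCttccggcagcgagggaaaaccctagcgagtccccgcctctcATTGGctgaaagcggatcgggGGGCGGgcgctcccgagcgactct
Mvk: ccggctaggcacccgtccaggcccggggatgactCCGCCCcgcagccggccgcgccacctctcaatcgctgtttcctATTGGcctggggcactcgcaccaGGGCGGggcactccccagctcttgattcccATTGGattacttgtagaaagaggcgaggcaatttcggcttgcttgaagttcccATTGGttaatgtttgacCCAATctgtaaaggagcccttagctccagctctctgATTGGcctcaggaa
Ggps1: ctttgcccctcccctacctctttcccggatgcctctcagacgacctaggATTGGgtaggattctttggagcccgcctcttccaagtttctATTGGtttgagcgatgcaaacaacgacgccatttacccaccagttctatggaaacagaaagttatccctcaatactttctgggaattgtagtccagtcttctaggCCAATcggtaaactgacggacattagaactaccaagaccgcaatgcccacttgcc
Ebp: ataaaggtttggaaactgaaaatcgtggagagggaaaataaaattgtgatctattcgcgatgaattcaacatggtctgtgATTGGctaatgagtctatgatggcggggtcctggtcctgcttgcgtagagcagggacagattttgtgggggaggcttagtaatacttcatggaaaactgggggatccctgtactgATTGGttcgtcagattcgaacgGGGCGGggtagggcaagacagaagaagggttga
Sc5d: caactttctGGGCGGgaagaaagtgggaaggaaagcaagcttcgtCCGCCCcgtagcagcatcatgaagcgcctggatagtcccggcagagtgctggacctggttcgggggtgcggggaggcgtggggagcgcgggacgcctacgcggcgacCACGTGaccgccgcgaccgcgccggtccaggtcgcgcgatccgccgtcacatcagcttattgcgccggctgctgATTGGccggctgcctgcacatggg
Srebf2: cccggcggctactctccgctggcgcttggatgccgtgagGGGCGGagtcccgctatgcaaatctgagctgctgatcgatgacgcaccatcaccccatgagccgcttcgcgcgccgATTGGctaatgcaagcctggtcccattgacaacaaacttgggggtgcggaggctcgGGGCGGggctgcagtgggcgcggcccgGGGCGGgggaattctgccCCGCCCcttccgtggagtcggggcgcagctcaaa
The Hmgcs1 window holds 2 GC boxes, 3 CCAAT boxes and the sterol core, which lies from -136 to -129 relative to the start. Mvk holds 2 GC boxes and 5 CCAAT boxes, and Ebp 1 and 2. Sc5d holds 2 GC boxes, 1 CCAAT box and 1 E-box. Srebf2 holds 4 GC boxes and 1 CCAAT box, while Ggps1 holds 3 CCAAT boxes and 0 GC boxes.

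The samples also differed outside the sterol genes. Sp3 itself was at 8.39, 8.34 and 8.61 in knockout and 9.87, 9.77 and 9.54 in wildtype, a log2 difference of -1.27 with limma adjusted p = 0.00254. Array medians lay between 22.5 and 26.7 intensity units. Knockout c had both a high level of Xist, at 10.55 on the log2 scale, and an intermediate level of the Y-linked Eif2s3y, at 6.64. Wildtype a had Xist at 10.63 with Eif2s3y at 1.34, and the other 4 arrays had Xist between 5.21 and 5.80 with Eif2s3y between 8.60 and 8.88. Knockout c was therefore the 1 array with high signal of both kinds, so whether it holds RNA of a single fetus is in doubt, and this was not tested. Although the label is heart, the 8 measured hepatocyte markers had a median level at the 99.5th percentile of all probe sets, and 8 of 14 cardiomyocyte markers lay below the median. Of the heart muscle markers, Myh6 was among the dimmest, at 2.92 in knockout and 0.91 in wildtype, and Actc1 was the brightest, at 8.69 and 7.61, where the median over all probe sets is 4.54. The cells that hold the sterol gene signal were not identified, and in bulk samples fewer cells of a type and less RNA per cell cannot be told apart.

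Across the 30 measured members, most sterol pathway enzymes had slightly lower means in knockout, and no member passed the test. With limma over all 45037 probe sets, 0 members had an adjusted p under 0.05 and the smallest was 0.553, while 3 had an unadjusted p under 0.05 and 0.0311% of all probe sets were called. Without the intensity trend 0 members were called and 0 had an unadjusted p under 0.05. The differences ran from -0.41 at Ebp to 0.23 at Ggps1. Lower values were found in 21 of 30 members, with a median log2 difference of -0.14. Genes of the members' level range also tended to be lower, 61.7% of 6540 genes with a median of -0.06, against 52.5% of all genes with a median of -0.02. Without knockout c the members' median was -0.12, and 21 were again lower. Without it the difference was -0.35 at Ebp, -0.33 at Scd1 and -0.52 at Sc5d, while Idi1 moved from -0.18 to -0.09 and Nsdhl from -0.33 to -0.07. All 30 representative probe sets lay at or above the 74.4th percentile of level. The range of levels used for comparison was set after the values were seen.

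**Figure D1:**
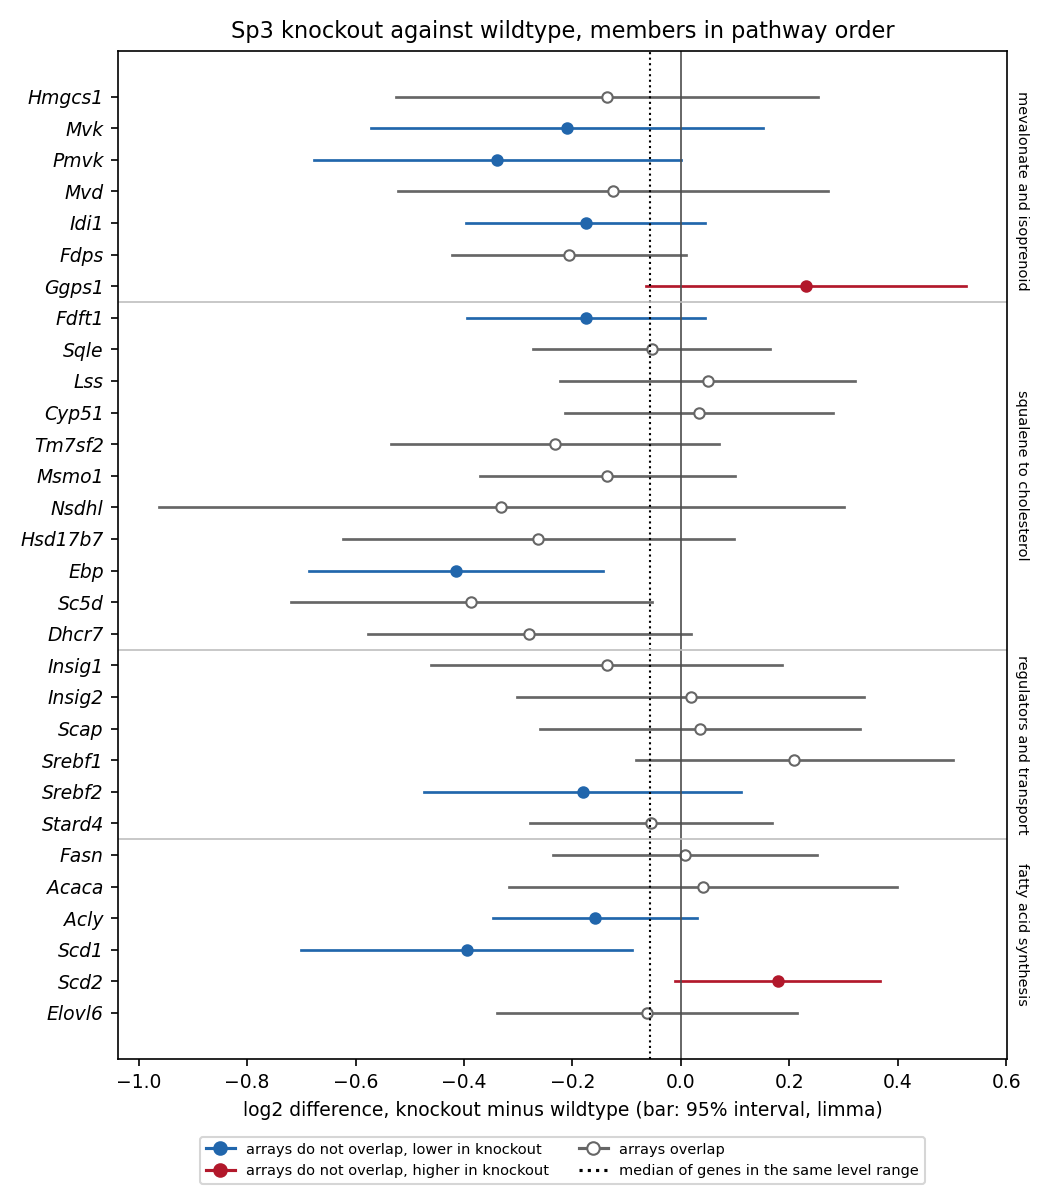
Log2 difference between knockout and wildtype for the 30 measured members in pathway order (x axis, log2 units; bars are 95% limma intervals, n = 3 arrays per group). Filled blue and red points are members whose arrays do not overlap, 8 lower and 2 higher in knockout; the dotted line is the median of all genes in the same level range, -0.06.

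The 2 enzyme groups of the sterol path carried most of the lower values. Of 18 enzymes from Hmgcs1 to Dhcr7, 15 lay lower, with a median of -0.19. The 6 regulators and transport genes had a median of -0.02 and the 6 fatty acid synthesis genes -0.03, each with 3 lower and 3 higher. Among 19 genes of fatty acid and glyceride synthesis outside the members, however, 18 were lower, with a median of -0.13. Lower values were thus not particular to the sterol enzymes. Whether the role groups differ from each other was not tested. The knockout arrays lay wholly below the wildtype arrays in 8 of 30 members, 26.7%, where 9.04% of all genes and 14.4% of those in the level range did so. They lay wholly above in 2 members, 6.67%, against 6.02% of all genes. At an unadjusted p under 0.05, 3 members were lower, against 5.51% of all genes and 9.30% of those in the level range, and 0 were higher, against 3.2% of all genes. These 3 were Ebp, Sc5d and Scd1.

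How many members lay apart depended on how the arrays were scaled. Quantile normalization left 19 of 30 lower with a median of -0.09. The arrays then did not overlap in 3 lower members, Mvk, Idi1 and Ebp, a share of 10.0% against 8.24% of all genes and 9.60% of those in the level range, and in 3 higher ones, 10.0% against 6.64% and 8.09%. Median centring moved the other way, to 27 of 30 lower and a median of -0.21, with 8 lower members apart, 26.7% against 12.3% of all genes and 20.2% of those in the level range, and 0 higher, against 4.44% and 2.60%. Centring shifts the difference of every gene by the same amount, so a small positive difference turns negative by construction. Mvk, Idi1 and Ebp lay apart under each of the 3 scalings. The members' median lay 0.08 below that of the genes in their level range, both as deposited and after quantile normalization. With 1 array left out, the members' median minus that of these genes ran from -0.12 without knockout a to -0.05 without knockout b.

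**Figure D2:**
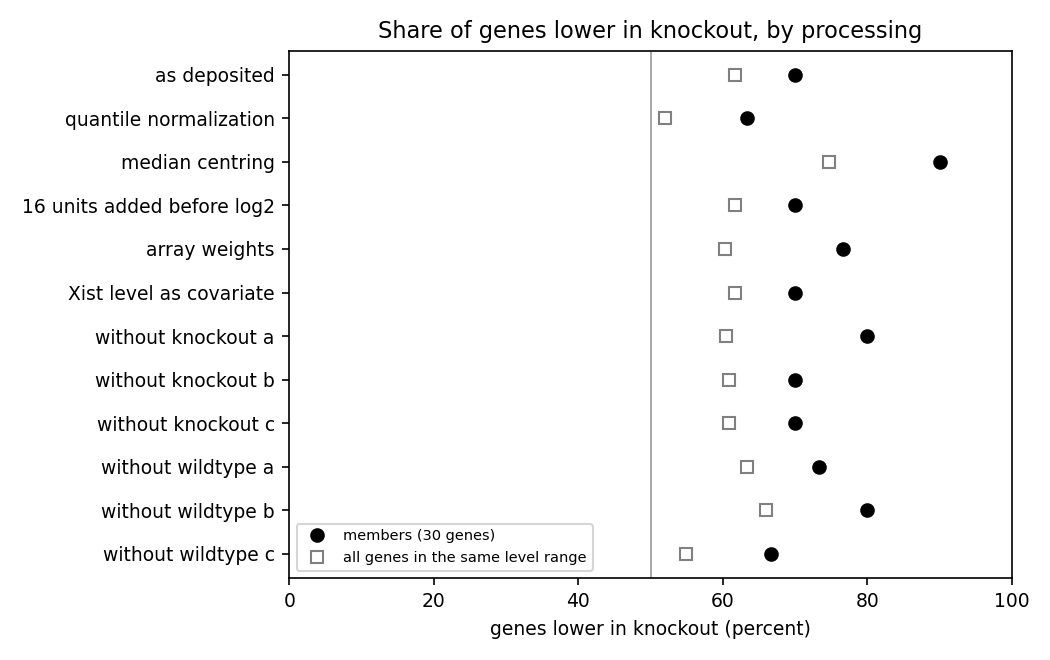
Percentage of genes lower in knockout (x axis) for the 30 members (filled) and all genes in the same level range (open squares). The y axis lists the processing choices drawn. Fits without the trend, with the replicate block, without dim probe sets and with averaged probe sets are not drawn. With averaged probe sets 17 of the 30 members were lower. As deposited the shares were 70.0% and 61.7%, after quantile normalization 63.3% and 52.0%, and after median centring 90.0% and 74.8%.

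In the mevalonate and isoprenoid branch, 6 of the 7 measured enzymes lay lower, with a median of -0.18, and none passed. Per-array values are given in the order a, b, c. Hmgcs1, the synthase that joins acetoacetyl-CoA and acetyl-CoA, was at 11.13, 10.56 and 11.10 in knockout and 11.08, 10.82 and 11.31 in wildtype. Its groups overlap, with a low knockout b, and its difference was -0.14 with a 95% interval of -0.53 to 0.25. Without knockout b it was 0.05. Further Hmgcs1 probe sets, at mean levels of 10.91, 10.48 and 9.17, differed by -0.06, 0.03 and -0.16 with overlap. Mvk, mevalonate kinase, was at 6.62, 6.76 and 6.62 in knockout and 6.86, 6.79 and 6.98 in wildtype. The groups stand apart by a narrow gap between knockout b and wildtype b, with a difference of -0.21 and limma adjusted p = 0.795.

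Pmvk, the next kinase, was at 7.15, 7.61 and 7.45 in knockout and 7.82, 7.74 and 7.65 in wildtype. Knockout a was far below the others, and the difference was -0.34 (interval -0.68 to 0.00, limma adjusted p = 0.699). Mvd, the decarboxylase that yields isopentenyl diphosphate, overlapped at its representative probe set, at 7.02 ± 0.12 and 7.14 ± 0.29 (SD, n = 3 each). At its other probe set it was at 6.79, 6.67 and 6.87 in knockout and 7.37, 7.26 and 7.22 in wildtype. These arrays do not overlap, and the difference was -0.51 (interval -0.85 to -0.17, limma adjusted p = 0.576), the lowest of any member probe set above the median level of the table.

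Idi1, the isomerase of isopentenyl diphosphate, was at 9.89, 9.92 and 9.64 in knockout and 9.99, 9.97 and 10.02 in wildtype, a difference of -0.18. The wildtype arrays lay within 0.05 of each other, and knockout c was lowest. The other Idi1 probe set, at a mean level of 8.63, differed by 0.01 with overlap. Fdps, which makes farnesyl diphosphate, was at 10.36, 10.64 and 10.31 in knockout and 10.67, 10.57 and 10.69 in wildtype. Knockout b lay among the wildtype arrays, and the difference was -0.21 with limma adjusted p = 0.709. Ggps1, which extends farnesyl to geranylgeranyl diphosphate for protein prenylation, was the exception of this branch. It was at 7.76, 7.69 and 7.90 in knockout and 7.62, 7.53 and 7.51 in wildtype, without overlap, a difference of 0.23 (interval -0.06 to 0.53, limma adjusted p = 0.742). Its other 3 probe sets differed by 0.24, 0.22 and 0.05, all above 0.

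**Figure D3:**
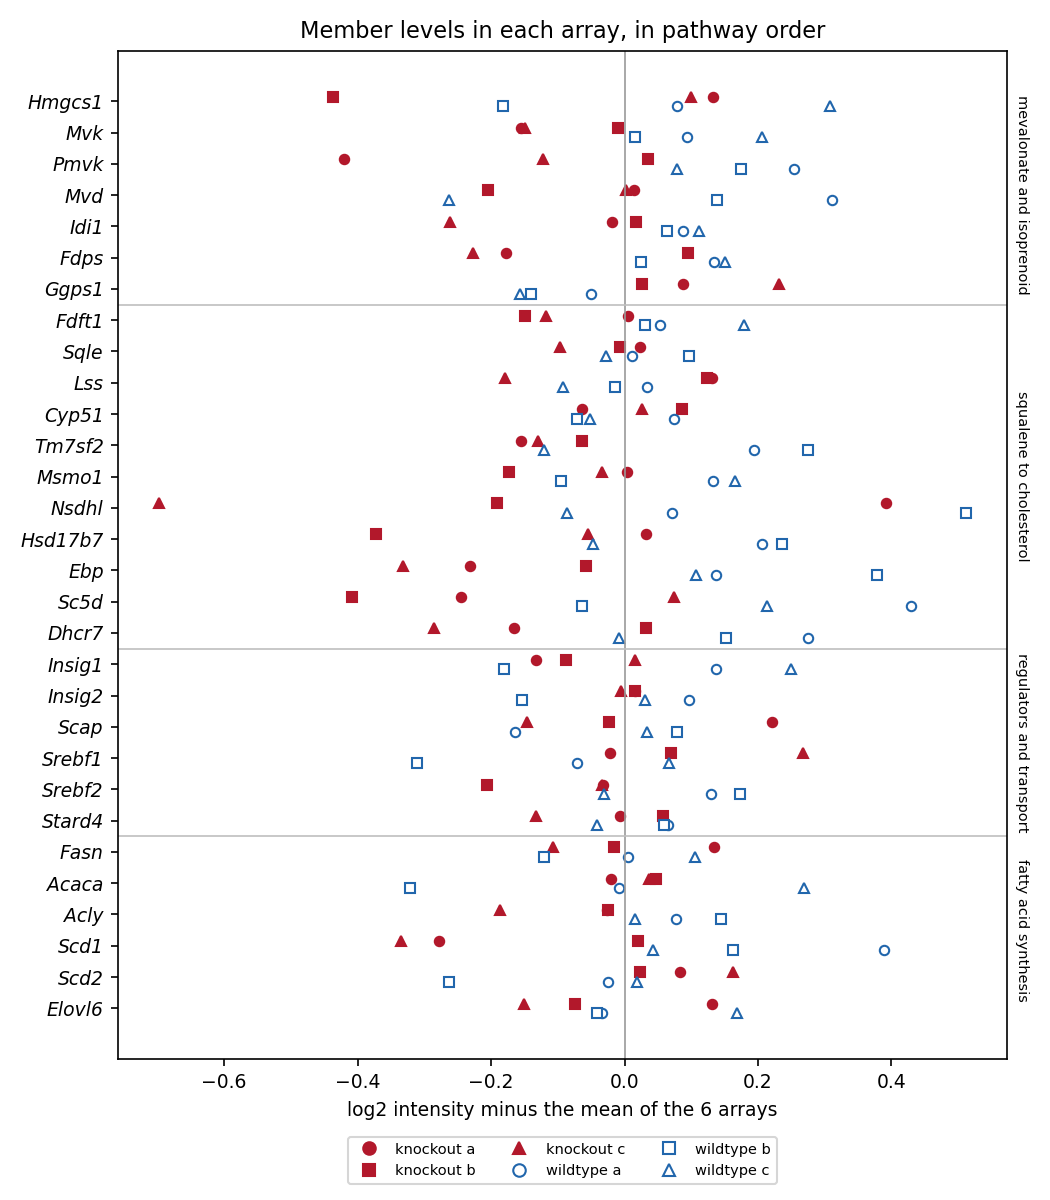
Log2 intensity of each member in each array minus the mean of the 6 arrays (x axis), in pathway order from Hmgcs1 to Elovl6 (y axis). Filled red symbols are knockout and open blue symbols wildtype, shaped by sample letter; Ebp shows all knockout points left of all wildtype points, and Nsdhl has the widest scatter, from 8.08 to 9.29 before centring.

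From squalene to cholesterol, 9 of 11 enzymes lay lower, with a median of -0.23. Fdft1, squalene synthase, stands at the branch point towards sterols. It was at 9.50, 9.35 and 9.38 in knockout and 9.55, 9.53 and 9.68 in wildtype. The groups were apart by a narrow gap, with a difference of -0.17. A further Fdft1 probe set of nearly the same mean level, 9.48 against 9.50, differed by -0.02 with overlap. Sqle, the epoxidase and a control point of the pathway, differed by -0.05, with an interval of -0.27 to 0.17. Lss, lanosterol synthase, and Cyp51, which removes a methyl group of lanosterol, differed by 0.05 and 0.03 with intervals of -0.22 to 0.32 and -0.21 to 0.28. These values, at the representative probe sets, are too near 0 to have a settled sign. A dimmer Lss probe set, at a mean level of 6.44, differed by 0.30 (interval -0.13 to 0.72). Its knockout arrays lay wholly above the wildtype arrays. Sqle was at 0.01 after quantile normalization, and the common shift of median centring put Lss and Cyp51 at -0.03 and -0.04.

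Ebp and Sc5d, late in the path, had the lowest differences of the 18 sterol enzymes. Ebp, the sterol isomerase, was at 8.58, 8.75 and 8.48 in knockout and 8.95, 9.19 and 8.92 in wildtype. The groups stand clearly apart, and the difference was -0.41 (interval -0.69 to -0.14, limma adjusted p = 0.553). Sc5d, the desaturase that acts after Ebp, was at 8.80, 8.64 and 9.12 in knockout and 9.47, 8.98 and 9.26 in wildtype. Knockout c overlapped the wildtype arrays, and the difference was -0.39 (interval -0.72 to -0.05, limma adjusted p = 0.663). Dhcr7, the reductase that completes cholesterol, was at 8.01, 8.21 and 7.89 in knockout and 8.45, 8.33 and 8.17 in wildtype, overlapping only between knockout b and wildtype c. Its difference was -0.28 with limma adjusted p = 0.713.

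The remaining enzymes overlapped between the groups. Tm7sf2, a sterol reductase, differed by -0.23, Msmo1, a methyl oxidase, by -0.14, and Hsd17b7, a ketoreductase of the same demethylation complex, by -0.26. Further Hsd17b7 probe sets, at mean levels of 5.81 and 5.62, differed by 0.19 and -0.12 with overlap. No direction can therefore be given for Hsd17b7. Nsdhl, the dehydrogenase of the demethylation complex, varied most, at 9.16, 8.58 and 8.08 in knockout and 8.84, 9.29 and 8.69 in wildtype. Knockout c was lowest and wildtype b highest, and the difference was -0.33 with an interval of -0.96 to 0.30. Nsdhl and Ebp are the X-linked members. With the Xist level as a covariate their differences were -0.34 and -0.42.

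Among the regulators, the SREBP genes themselves lay on opposite sides of 0. Srebf1, whose protein favours fatty acid genes, was at 8.60, 8.69 and 8.89 in knockout and 8.55, 8.31 and 8.69 in wildtype. Wildtype b was low and the groups overlapped at their edges, with a difference of 0.21 (interval -0.08 to 0.50, limma adjusted p = 0.757). Srebf2, whose protein favours sterol genes, was at 7.80, 7.63 and 7.80 in knockout and 7.96, 8.01 and 7.80 in wildtype at the representative probe set. Knockout a and wildtype c all but coincide there, and the difference was -0.18 (interval -0.47 to 0.11, limma adjusted p = 0.785).

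The other Srebf2 probe set went against this. It was at 7.61, 7.71 and 7.64 in knockout and 7.31, 6.89 and 7.40 in wildtype, with no overlap, a difference of 0.45 (interval 0.10 to 0.81) and limma adjusted p = 0.640. Both probe sets are annotated to Srebf2 through the same expressed sequence accession, and their places on the transcript are not known here. No direction can therefore be given for Srebf2.

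Insig1, itself a SREBP target, was at 7.64, 7.69 and 7.79 in knockout and 7.91, 7.59 and 8.02 in wildtype, a difference of -0.14 with overlap. Insig2, a paralogue with sterol-independent control, was at 7.34, 7.34 and 7.32 in knockout and 7.42, 7.17 and 7.36 in wildtype, a difference of 0.02 (interval -0.30 to 0.34). The knockout values of both genes lie inside the wildtype range, and wildtype b was lowest for each. Scap, the escort of SREBPs, differed by 0.04, and Stard4, a sterol carrier protein, by -0.05. With the common shift of median centring Insig2 and Scap were at -0.06 and -0.04, and Stard4 was at 0.01 after quantile normalization.

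In fatty acid synthesis the desaturase paralogues differed with opposite signs at their representative probe sets, and neither passed the test. Scd1 was at 8.17, 8.47 and 8.11 in knockout and 8.84, 8.61 and 8.49 in wildtype, a difference of -0.40 (interval -0.70 to -0.09, limma adjusted p = 0.634). Scd2, the form abundant in embryo and brain, was at 11.50, 11.44 and 11.58 in knockout and 11.40, 11.16 and 11.44 in wildtype, a difference of 0.18 (interval -0.01 to 0.37, limma adjusted p = 0.710). The knockout arrays lay below all wildtype arrays for Scd1 and above them for Scd2, in both cases by a narrow gap. The other Scd1 probe set differed by 0.14, while the other 2 of Scd2 differed by 0.05 and 0.15. No direction can therefore be given for Scd1.

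Acly, which supplies cytosolic acetyl-CoA to both pathways, was at 10.51, 10.51 and 10.35 in knockout and 10.61, 10.68 and 10.55 in wildtype. At this representative probe set the difference was -0.16 with no overlap. The next Acly probe sets by mean level, at 9.62 and 8.41, differed by 0.16 and 0.01 with overlap. No direction can therefore be given for Acly. Fasn, fatty acid synthase, differed by 0.01 (interval -0.24 to 0.25) and Acaca, acetyl-CoA carboxylase, by 0.04 (interval -0.32 to 0.40). Elovl6, the elongase of palmitate, differed by -0.06. With the common shift of median centring Fasn and Acaca were at -0.07 and -0.03.

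Probe sets of a gene did not always differ in the same direction. The 30 members had 71 probe sets, of which 58 lay at or above the median level of the table and 13 below it. Of the 58, 33 were lower in knockout. With 1 probe set per gene, 56.7% of the 10826 genes at or above that level were lower. Of 18 members with several probe sets at or above that level, 9 had differences of both signs. These were Acly, Cyp51, Hmgcs1, Hsd17b7, Idi1, Insig2, Scd1, Srebf2 and Stard4. Taking the mean over all probe sets of a gene left 17 of 30 members lower with a median of -0.03. Over those at or above the median level, a step added after the data were seen, 21 of 30 were lower with a median of -0.08. The shares of all genes lower under these averages are not given here.

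**Figure D4:**
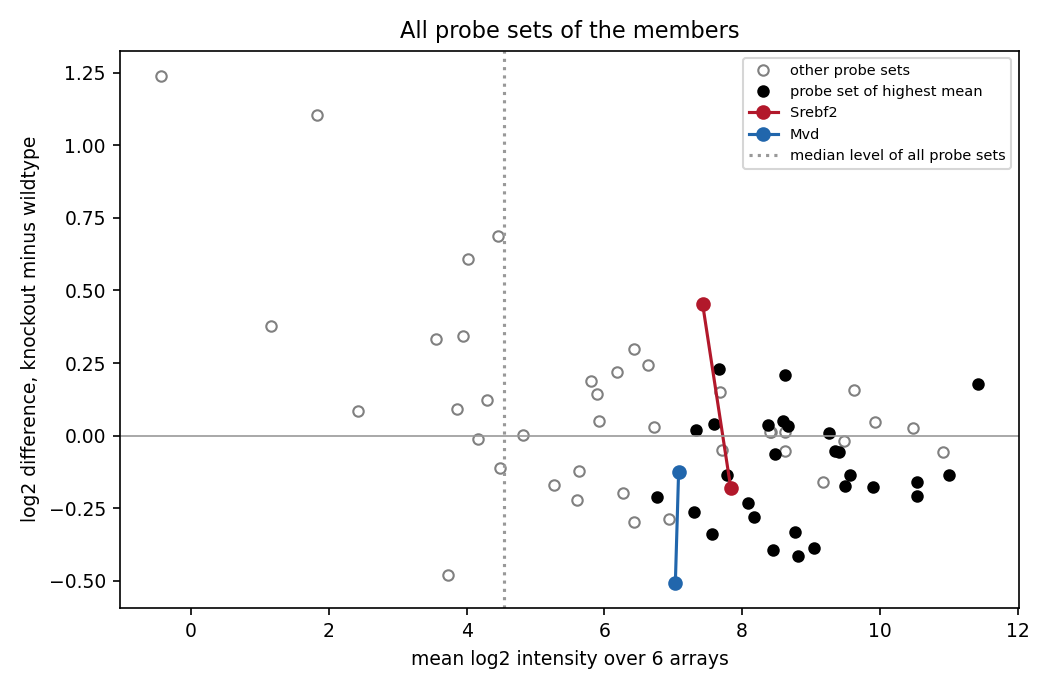
Log2 difference between knockout and wildtype (y axis) against mean log2 intensity over the 6 arrays (x axis) for all 71 probe sets of the 30 members. Filled black points are the representative probe sets; the lines join the probe sets of Srebf2, at -0.18 and 0.45, and of Mvd, at -0.13 and -0.51.

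By array, the members were lowest in knockout c. The median over members of log2 minus the mean of the 6 arrays was -0.01, -0.01 and -0.11 for the knockout arrays, and 0.08, 0.03 and 0.04 for the wildtype arrays, in the order a to c. The groups did not overlap in this summary, which has no test, but did in the squalene to cholesterol group, with wildtype c at -0.03 and knockout a at 0.00. All genes in the members' level range also stood apart by group in this summary, by a narrow gap. They were at -0.0288, -0.0068 and -0.0333 in knockout and 0.0146, -0.0038 and 0.0811 in wildtype. Knockout c held the lowest value of 11 of the 30 members. The regulators and the fatty acid group overlapped, with wildtype b lowest of the wildtype arrays in both, at -0.05 and -0.08.

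**Figure D5:**
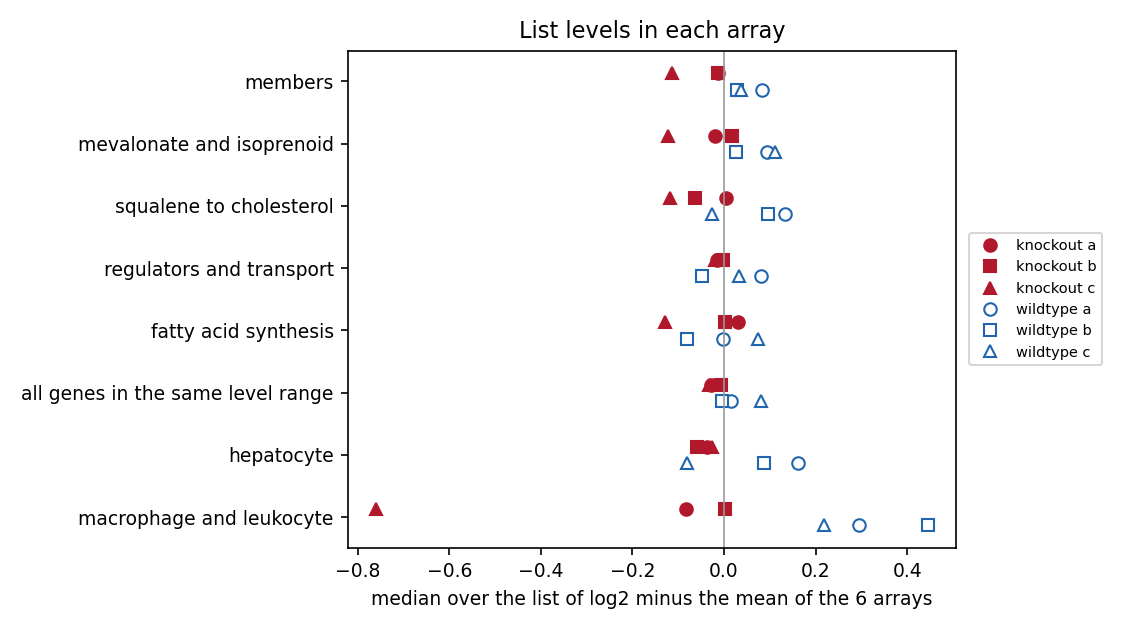
Median over each list of log2 intensity minus the mean of the 6 arrays (x axis), one symbol per array, filled red for knockout and open blue for wildtype. Knockout c is lowest on the member list, at -0.11, and stands far lower on the macrophage and leukocyte markers, at -0.76, while all genes in the same level range stay between -0.03 and 0.08.

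Markers of other cells also differed in level between the arrays. In each list limma called 0, while 7 macrophage and leukocyte, 5 cardiomyocyte, 2 hepatocyte and 0 erythroid markers had an unadjusted p under 0.05. Over all 18193 genes, 1585 did so in either direction. All 10 macrophage and leukocyte markers were lower in knockout, with summed intensities of 1225 to 2081 against 2412 to 2714 in wildtype, lowest in knockout c. Of 8 hepatocyte markers 7 were lower, and their sums overlapped, at 36945 to 37439.8 in knockout and 36878 to 43242 in wildtype. Of 9 erythroid markers 8 were lower, at 29118 to 40021 against 36675 to 41693. Of 14 cardiomyocyte markers 11 were higher, at 1023 to 1129.8 against 405 to 946. Hbb-y, Alb and Afp were among the brightest, and of the defining markers none was listed at 0. The part of these cells in the lower sterol values was not tested.

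Genes of the pathway outside the members also had 0 called, and 9 of the 57 measured had an unadjusted p under 0.05. In either direction 1585 of all 18193 genes did so, and 805 of the 6540 in the members' level range. The nuclear envelope sterol reductase Lbr, the one gene analysed here of a list of core sterol genes, was at 11.19 ± 0.24 in knockout and 11.44 ± 0.12 in wildtype. Of 8 genes of SREBP processing and sterol-induced degradation, 5 were lower. Erlin1, an endoplasmic reticulum scaffold, differed by -0.31 without overlap, and Rnf139, a ubiquitin ligase, by -0.34 with overlap. Of 18 genes of sterol transport, storage and sensing, 14 were lower. Npc1, which releases sterol from lysosomes, differed by -0.57, at 5.53, 6.05 and 6.23 in knockout and 6.62, 6.25 and 6.65 in wildtype.

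Vldlr, a lipoprotein receptor, had the largest difference of these lists. It was at 7.76, 7.21 and 8.32 in knockout and 6.98, 7.02 and 7.02 in wildtype, 0.76 higher (limma adjusted p = 0.554). All knockout arrays lay above the tightly grouped wildtype arrays, knockout c most. Of 19 genes of fatty acid and glyceride synthesis, 18 were lower, with a median of -0.13. Tmem97, a SREBP target also known as the sigma-2 receptor, differed by -0.38, and Fads1, a polyunsaturated fatty acid desaturase, by -0.24, both without overlap. Of 11 genes that use isoprenoids, 9 were lower. The smallest p-values were those of Rabggtb, a subunit of Rab geranylgeranyl transferase, at -0.22, and Zmpste24, a prenylated protein protease, at -0.35.

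Members with and without the letters of each partner factor were set side by side. The 19 measured members with a GC box had a median of -0.16, with 14 lower, and the 5 without one had a median of 0.01, with 2 lower. Among all genes in the level range with a listed promoter, the 3883 with a GC box had a median of -0.06, with 62.2% lower, and the 1517 without one a median of -0.05, with 61.1% lower. The CCAAT box gave a like split, with a median of -0.16 and 15 lower in the 21 members that hold it, and a median of 0.04 and 1 lower in the 3 that do not. Level-range genes with and without a CCAAT box had medians of -0.06 and -0.05. The 5 members without a GC box were Pmvk, Ggps1, Fasn, Acaca and Elovl6, and the 3 without a CCAAT box were Scap, Acaca and Elovl6. Fasn, Acaca and Elovl6 belong to the fatty acid synthesis group, whose median was -0.03. Motif and role group therefore cannot be told apart in these splits. None of these differences between members was tested.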

How the data were processed

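The authors' deposited table holds 1 intensity per probe set and array on a linear scale, from 0.0562 to 12897. GCOS and RMA are named, without versions, per the submitters' processing notes; which of them made these values, and any genome build, is not stated in what was used here. log2 was taken of the deposited intensities with no further normalization. The 64 control probe sets were left out, which left 45037. Probe sets with 1 gene numbered 34945, with several 932 and with none 9160, and symbols were checked through gene identifiers of GRCm38.p6.

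Groups came from the sample titles. limma 3.58.1 in R 4.3.3 was fitted to all 45037 probe sets with group as the only term, an intensity trend and robust estimation, two-sided, with Benjamini-Hochberg adjustment and a threshold of 0.05. The trend was used because an earlier analysis of these data found that the residual SD falls with intensity. The fit was tested on simulated data. The members and lists were chosen with earlier results of these data known. Member values are given for up to 3 genes of smallest p per role group, for all members without overlap and for paralogous pairs, and 2 genes per outside list. The 6 promoters shown, and genes named beyond this, were picked after their values were seen. Alternatives are listed in the closing section.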

Additional observations from a re-analysis of the deposited data

How the results depend on the processing

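No member was called by limma as reported or under any of the 15 alternatives run. These dropped the trend, quantile normalized or median centred the arrays, dropped dim probe sets, added 16 intensity units before log2, used the replicate letter as a block, weighted the arrays, took the Xist level as a covariate, left out each of the 6 arrays, or averaged all probe sets of a gene. Members at an unadjusted p under 0.05 numbered from 0 without the trend to 7 after median centring and with the block. The members' median of -0.14 was -0.2127 after median centring, -0.0293 with averaged probe sets, and from -0.1701 to -0.1093 with 1 array left out. Calls over all probe sets, 14 as reported, were 0 without the trend, 25 with array weights, 3 without knockout a, 7 without knockout c, 7 without wildtype a, 24 without wildtype c, and 9 genes with averaged probe sets. With the replicate block they were 258, with 0 members called and a members' median of -0.1365. The smallest limma adjusted p of a member with the block was 0.106. Same-letter samples correlated at -0.01, 0.05 and 0.08 in their deviations from group means. Knockout b and c correlated best with the wildtype sample of their own letter, and knockout a with wildtype b, at 0.02. The labels pair no samples and all these correlations were near 0, so the letters were not taken as pairs.

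Of the 30 members, 15 kept their sign over all 15 alternatives and 15 changed it in at least 1. After quantile normalization Sqle was at 0.0147 and Stard4 at 0.0133. After median centring Lss was at -0.0268, Cyp51 at -0.0434, Insig2 at -0.0583, Scap at -0.0408, Fasn at -0.0689 and Acaca at -0.0348. With array weights Cyp51 was at -0.0058 and Insig2 at -0.0072. With averaged probe sets Hmgcs1 was at 0.0015, Fdps at 0.5159, Fdft1 at 0.3227, Cyp51 at -0.0092, Msmo1 at 0.2753, Insig2 at -0.0577, Srebf2 at 0.1366 and Acly at 0.0378. These averages take in probe sets below the median level of 4.54. For Fdps 1 at a mean level of -0.43 differed by 1.24. For Fdft1 those at 1.83 and 1.15 differed by 1.10 and 0.38, and for Msmo1 1 at 4.46 by 0.69. The Srebf2 average takes in a brighter probe set, at 7.43, that differed by 0.45. With 1 array left out, Lss ran from -0.0035 to 0.1514, Scap from -0.0664 to 0.1170, Fasn from -0.0580 to 0.0627 and Hmgcs1 from -0.2615 to 0.0480. Cyp51 ran from -0.0020 to 0.0780, Insig2 from -0.0547 to 0.0709, Acaca from -0.1093 to 0.1860 and Elovl6 from -0.1441 to 0.0058. Median centring shifts every gene equally, and an averaged value follows from the probe sets taken in. The cause of the remaining changes was not tested. With 3 arrays a group, 95% intervals were between 0.38 and 1.26 log2 units wide over the members.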

Other observations

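The partner factors of SREBPs were also measured, and were looked at after the other values were known. Sp1, which binds the same GC boxes as Sp3, had a mean of 10.73 ± 0.17 over the 3 knockout arrays and 10.63 ± 0.16 over the 3 wildtype arrays (SD). The NF-Y subunit genes Nfya and Nfyb differed by -0.09 and -0.07 with overlap. Nfyc, a histone-fold subunit of NF-Y, was at 8.77, 8.80 and 8.76 in knockout and 9.03, 8.89 and 9.06 in wildtype, with no overlap and a difference of -0.22 (limma adjusted p = 0.717).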
